A study of Mus musculus with 16 samples.

Results

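The genes described here are 10 genes that brown adipocytes use to keep their identity and to make heat. *Ucp1*, *Cidea*, *Dio2*, *Elovl3* and *Kcnk3* encode effectors, and *Ppargc1a*, *Ppargc1b*, *Prdm16*, *Ebf2* and *Zfp516* encode regulators. They were taken by name from a list and not picked by their measured values, but earlier results of these data were known at that time. They are 10 of the 49066 gene symbols in the table. Their level is given as TPM, a share of the library's RNA corrected for transcript length and summed over the transcripts of a gene.

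Bulk RNA was sequenced from brown adipose tissue (BAT) of C57BL6/J mice, with 4 WT males, 4 KO males, 4 WT females and 4 KO females. WT mice were homozygous for a floxed *Gdf15* allele and carried no Cre, and KO mice had the same floxed alleles together with the transgene Tg(Ucp1-cre)1Evdr, in which the *Ucp1* promoter drives Cre. *Gdf15* encodes a secreted stress-induced hormone of the TGF-beta family. All 16 mice had eaten a diet with 60% of its energy from fat for 12 weeks, starting at 6 weeks of age, and were 18 weeks old. The colony was housed at 22 °C, some mice spent time in calorimetry cages at 30 °C, and the sources do not say which mice were sequenced. Every KO library carries the Cre transgene and no WT library does, so loss of *Gdf15* and presence of the transgene cannot be told apart. Cre acts in cells that use the *Ucp1* promoter, so other cells of the tissue keep *Gdf15*.

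Brown adipocytes oxidise fat and release the energy as heat. Cold makes sympathetic nerves release noradrenaline, beta-adrenergic receptors then raise cAMP, and kinases downstream activate transcription factors of the CREB and ATF family, which bind the cAMP response element TGACGTCA. PGC-1alpha, the product of *Ppargc1a*, couples this signal to mitochondrial biogenesis and to *Ucp1*, while PRDM16 and EBF2 hold the brown identity of the cell.

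Between 58140 and 65746 transcripts per library were above 0, and 34.5 to 59.8% of all TPM came from the mitochondrial genome. Read counts behind the values are unknown. In female WT 4 a single transcript outside the annotation took 16.5% of the TPM, which lowers the share left for all others. The library names begin with 5, 8b, 9 or 10, a prefix whose meaning is not stated. Male WT libraries had the prefixes 5, 5, 9 and 9, male KO libraries 10, 9, 9 and 9, female WT libraries 10, 8b, 8b and 8b, and female KO libraries 10, 5, 8b and 9, each in the order of replicates 1 to 4. The 8 adipocyte genes that brown and white fat share summed to 7785 to 12955 TPM, and the 10 white adipocyte markers to 91.5 to 279.7 TPM. The 14 skeletal muscle markers ranged from 75.6 to 5702 TPM with high and low libraries in every group, and their part in the results was not tested. Relative to WT, the median of all genes tested was 0.16 higher in male KO and 0.10 higher in female KO on the log2 scale. Rescaling by the median of ratios brought these medians to 0.0045 and 0.013, so a member with a log2 change near the median of all genes moved with the bulk of the transcriptome.

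*Gdf15* was low in every library. It was measured at 0.368, 0.690, 1.55 and 3.81 TPM in male WT mice and at 0.0915, 0.0801, 0.255 and 0.272 TPM in male KO mice. In females the WT libraries had 0.0622, 0.311, 0.170 and 0.290 TPM, while 3 of the 4 KO libraries were listed at 0 and KO 3 had 0.0794 TPM. The male groups did not overlap (two-sided exact permutation p = 0.0286, the smallest value 4 against 4 libraries allow). The female groups overlapped in 1 library (exact permutation p = 0.0571).

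*Ucp1*, *Cidea* and *Kcnk3* were the 3 most abundant in all 4 groups. In male WT mice *Ucp1* averaged 3674 ± 590.4 TPM (SD, n = 4), *Cidea* 1578 ± 256 TPM and *Kcnk3* 51.9 ± 5.71 TPM, and the ranges of these genes did not overlap. *Elovl3*, *Ppargc1b*, *Ebf2* and *Dio2* followed with means between 10.96 and 18.4 TPM, of which only *Ppargc1b* and *Ebf2*, as neighbours in the order, had separate ranges. *Ppargc1a* at 6.32 ± 0.772 TPM and *Prdm16* at 5.05 ± 0.552 TPM overlapped. *Zfp516* was lowest in each group, at 1.45 ± 0.197 TPM in male WT mice, and its range was separate from that of the next gene in all 4 groups. In female KO mice *Dio2*, at 23.5 ± 20.3 TPM, ranked above *Ppargc1b* and *Ebf2*, but its range of 5.56 to 52.6 TPM overlapped with both neighbours in the order.

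**Figure D1:**
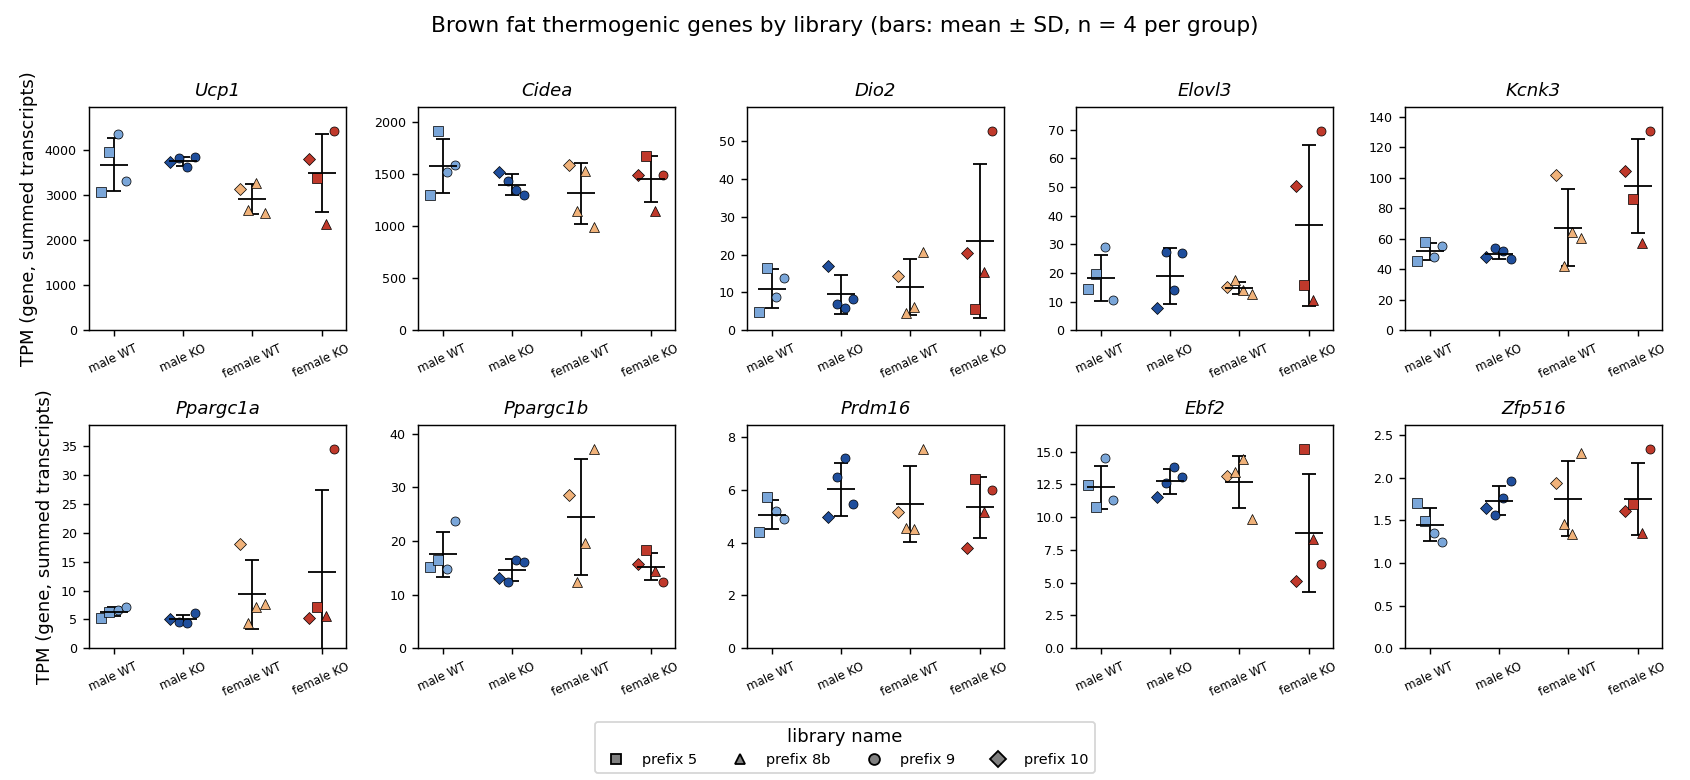
TPM of each gene in the 16 libraries, with 1 panel per gene, 1 point per library, the mean and SD of each group of 4 as bars (cut at 0), and the shape of a point giving the name prefix. The male WT and KO groups overlap in all panels, while *Dio2*, *Elovl3* and *Ppargc1a* spread most in female KO mice, where replicate 4 is the highest library of all 16 for each of them.

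The first question was whether BAT without *Gdf15* in its thermogenic adipocytes expressed less or more of these genes. In males none of the 10 members passed an adjusted p of 0.05 (limma with Benjamini-Hochberg adjustment over 12176 genes, of which 0.00821% passed). At an unadjusted p under 0.05, 1 of 10 members passed, against 18.7% of all genes. In 0 of 10 members were the WT and KO libraries fully separated, against 10.2% of all genes. The members' median difference, KO minus WT, was -0.03 (log2), with 4 members higher and 6 lower, beside the median of 0.16 over all genes. After median-of-ratios rescaling 2 members were higher and the median was -0.20, and 4 of 10 members passed an unadjusted p of 0.05 against 15.6% of all genes.

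*Ucp1*, the uncoupling protein that lets protons re-enter the mitochondrial matrix without making ATP, was measured at 3074, 3963, 4355 and 3302 TPM in male WT mice and at 3726, 3821, 3626 and 3847 TPM in male KO mice. All KO values lay inside the WT range. The difference was 0.05 (log2, SE 0.12, 95% interval -0.23 to 0.32, adjusted p = 0.850), and it turned to -0.12 after median-of-ratios rescaling. *Cidea*, a lipid droplet protein typical of brown adipocytes, had 1295, 1915, 1517 and 1585 TPM in male WT and 1521, 1436, 1346 and 1298 TPM in male KO mice, again with overlapping groups and a difference of -0.16 (SE 0.13).

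*Dio2* encodes the deiodinase that turns thyroxine into its active form inside the tissue. Its male WT libraries had 4.84, 16.4, 8.77 and 13.9 TPM and its male KO libraries 16.9, 6.88, 5.79 and 8.35 TPM. *Elovl3*, a cold-induced elongase of very long chain fatty acids, had 14.3, 19.5, 29.1 and 10.6 TPM in WT and 7.69, 27.3, 14.2 and 26.8 TPM in KO males. Both genes varied severalfold among mice of the same group, and their differences of -0.19 (SE 0.41) and -0.02 (SE 0.43) were smaller than their errors. *Kcnk3*, a potassium channel that sets the membrane potential of brown adipocytes, was the steadiest of the effectors in males, with 45.8 to 58.0 TPM over the 8 libraries.

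Among the regulators, *Ppargc1a* had the largest difference in males. It was measured at 5.29, 6.21, 6.68 and 7.09 TPM in WT and at 5.10, 4.54, 4.397 and 6.02 TPM in KO mice. The KO libraries lay mostly below the WT libraries, but KO 4 was higher than WT 1. The difference was -0.31 (log2, SE 0.13, 95% interval -0.60 to -0.02), with an unadjusted p = 0.0383 in limma and an adjusted p = 0.247, and it did not pass. Within the libraries of prefix 9, 2 WT and 3 KO, the difference was -0.44. After median-of-ratios rescaling it was -0.46 with an adjusted p = 0.175. Over 19 alternatives it kept its sign and was smallest in size without male KO 3, at -0.25. The limma adjusted p reached 0.779 among them. No member passed the unadjusted threshold without male WT 2, WT 3, WT 4, KO 2 or KO 3. Without male WT 1, KO 1 or KO 4, 1 of 10 members did.

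*Ppargc1b*, a coactivator related to *Ppargc1a*, had 15.2, 16.4, 14.7 and 23.7 TPM in male WT and 13.1, 12.4, 16.4 and 16.1 TPM in male KO mice. *Prdm16*, the zinc finger coregulator of brown fat identity, had 4.39, 5.71, 5.19 and 4.90 TPM against 4.96, 6.498, 7.19 and 5.47 TPM. *Ebf2*, a transcription factor that marks brown precursors and opens brown-specific enhancers, ranged from 10.7 to 14.5 TPM over the 8 male libraries, and *Zfp516*, a zinc finger protein that binds the *Ucp1* promoter, from 1.25 to 1.96 TPM. WT and KO overlapped for all 4 genes. Their differences lay between -0.25 for *Ppargc1b* and 0.23 for *Prdm16*, none past the adjusted threshold.

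On the TPM scale every member had a larger SD among female KO mice than among male KO mice. It was 869.7 against 101 TPM for *Ucp1* and 4.48 against 0.962 TPM for *Ebf2*. The share of all genes for which this holds was not counted, so it is not shown to be particular to the members. In females 0 of 10 members passed the adjusted threshold (limma), and 0% of the 12141 genes tested did. At an unadjusted p under 0.05 there were 0 of 10 members against 17.1% of all genes, and 0 of 10 members had separate groups against 8.08% of all genes. The members' median difference was 0.17 (log2) beside 0.10 over all genes, with 6 members higher and 4 lower. After median-of-ratios rescaling it was 0.08 beside 0.013. There 2 of 10 members passed an unadjusted p of 0.05 in limma, against 2451 of 12204 genes. With the name prefix as a covariate the members' median was -0.14 beside 0.02, and 3 of 10 members were higher. 

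*Ucp1* had 3139, 2662, 3258 and 2601 TPM in female WT and 3797, 3384, 2353 and 4423 TPM in female KO mice. The lowest and the highest of the 16 libraries were both female KO mice, so the KO range enclosed the WT range. The difference was 0.23 (log2, SE 0.21, 95% interval -0.24 to 0.70, adjusted p = 0.547), and it was -0.05 when the fit was adjusted for the name prefix. *Cidea* was measured at 1587, 1149, 1535 and 989.8 TPM in WT and at 1492, 1675, 1150.1 and 1491 TPM in KO females, with overlapping groups.

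*Dio2*, *Elovl3* and *Ppargc1a* were high in single female KO mice. *Dio2* had 14.4, 4.66, 6.06 and 20.6 TPM in female WT and 20.5, 5.56, 15.5 and 52.6 TPM in female KO mice. *Elovl3* had 15.05, 17.6, 14.1 and 12.5 TPM against 50.2, 15.99, 10.6 and 69.5 TPM. *Ppargc1a* had 18.03, 4.39, 7.16 and 7.70 TPM against 5.32, 7.19, 5.58 and 34.6 TPM. Female KO 4 was the highest library for all 3 genes, female KO 1 was also high for *Elovl3*, and female WT 1 was high for *Ppargc1a*. The differences were 0.84 (SE 0.66) for *Dio2*, 0.90 (SE 0.53) for *Elovl3* and 0.19 (SE 0.60) for *Ppargc1a*. Without female KO 4 they were 0.32, 0.47 and -0.42, so the direction of *Ppargc1a* rested on that library.

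The cAMP signal is known to act through the promoters of *Ucp1*, *Dio2* and *Ppargc1a*. They are shown because their windows held a match to the cAMP response element or a part of it. Female KO 4 was the highest of the 16 libraries for *Ucp1*, *Dio2*, *Elovl3*, *Kcnk3*, *Ppargc1a* and *Zfp516*. The share of all genes highest in that library was not counted, so this is not shown to be particular to the members. RefSeq promoter windows (GRCm38.p6, 250 bases before and 50 after the start) were found for 4 of the 10 members, *Ucp1*, *Dio2*, *Ppargc1a* and *Prdm16*. The letters TGACGTCA, which read the same on both strands, were searched first, and where they were absent the part TGACG or its reverse complement CGTCA, which lies within the full element. *Dio2* held the full element 95 bases before the start, as 1.79% of all 32851 promoters hold it in their window. *Ppargc1a* held the part 49 bases and *Ucp1* 147 bases before the start, as 20.8% of all promoters do, and *Prdm16* did not have these letters in its window. The matches are letters in a window, not measured binding. Windows were printed only where a match was found, and a link between these letters and the levels in any library was not tested. The 170 bases before the start read as follows, with the match in capitals.
*Dio2*, chr12:90739039-90739208, minus strand: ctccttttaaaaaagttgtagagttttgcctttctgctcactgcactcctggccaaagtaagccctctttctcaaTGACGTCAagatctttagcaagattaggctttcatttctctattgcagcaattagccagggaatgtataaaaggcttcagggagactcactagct
*Ppargc1a*, chr5:51567726-51567895, minus strand: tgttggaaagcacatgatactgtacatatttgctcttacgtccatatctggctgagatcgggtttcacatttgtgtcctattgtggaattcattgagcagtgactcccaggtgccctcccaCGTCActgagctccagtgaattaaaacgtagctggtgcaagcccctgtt
*Ucp1*, chr8:83290178-83290347, plus strand: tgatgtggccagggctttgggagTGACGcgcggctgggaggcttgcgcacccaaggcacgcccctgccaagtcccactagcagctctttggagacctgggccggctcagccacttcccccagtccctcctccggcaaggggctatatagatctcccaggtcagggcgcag

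*Kcnk3* was lower in the female libraries of prefix 8b than in the other female libraries. It was measured at 102, 41.9, 64.8 and 60.8 TPM in female WT and at 105, 85.9, 57.1 and 131 TPM in female KO mice. The 4 female libraries of prefix 8b, 3 WT and 1 KO, had 41.9 to 64.8 TPM and the other 4 had 85.9 to 131 TPM, with no overlap. Of the 10 members this held for *Kcnk3* alone, and it held for 17.3% of all genes. The KO difference of 0.50 (log2, SE 0.31, adjusted p = 0.414) was 0.05 (SE 0.23) with the prefix as a covariate, and 0.06 within prefix 8b. In males, where no library has the prefix 8b, *Kcnk3* stayed between 45.8 and 58.0 TPM.

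*Ebf2* and *Ppargc1b* were the members with the lowest values in female KO relative to WT. *Ebf2* had 13.1, 13.4, 14.4 and 9.87 TPM in WT and 5.16, 15.2, 8.37 and 6.45 TPM in KO females, so 3 of 4 KO libraries lay below every WT library and KO 2 lay above all of them. The difference was -0.61 (log2, SE 0.29, 95% interval -1.26 to 0.05, adjusted p = 0.317). *Ppargc1b* had 28.6, 12.4, 19.7 and 37.1 TPM in WT and 15.6, 18.4, 14.3 and 12.3 TPM in KO females, and its difference was -0.57 (SE 0.30, adjusted p = 0.350). Of the WT libraries 3 stood above every KO library, and WT 2 was as low as the lowest KO library. *Prdm16* ranged from 3.79 to 7.55 TPM and *Zfp516* from 1.34 to 2.34 TPM over the 8 female libraries, with differences of -0.02 (SE 0.20) and -1.7e-05 (SE 0.20).

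**Figure D2:**
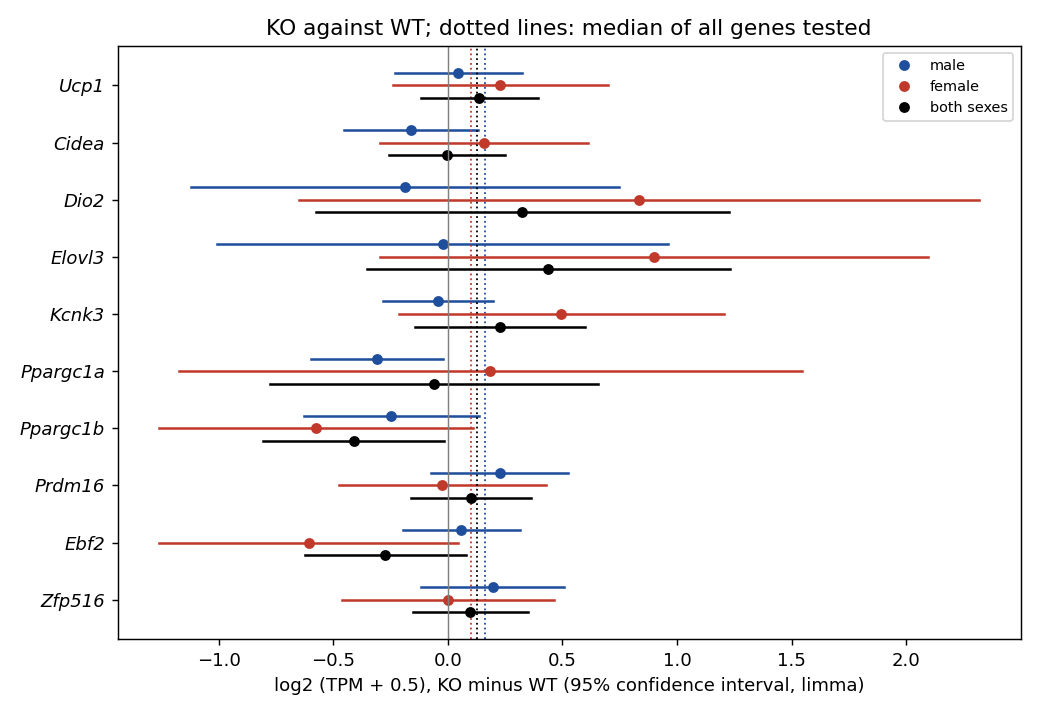
Difference between KO and WT in log2(TPM + 0.5) for each gene in males, in females and averaged over both sexes, with 95% confidence intervals from limma and dotted lines at the median of all genes tested. Female intervals are the widest, and the intervals of *Dio2*, *Elovl3* and *Ppargc1a* in females reach from below 0 to 1.54 or more.

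Over both sexes, 0 of 10 members passed the adjusted threshold in limma, where 2.93% of 12210 genes passed, 315 of them higher and 43 lower in KO. After median-of-ratios rescaling that split was 259 higher and 213 lower. At an unadjusted p under 0.05, 1 of 10 members passed against 24% of all genes. That member was *Ppargc1b*, with a difference of -0.41 (log2, SE 0.19, 95% interval -0.80 to -0.02, limma adjusted p = 0.193). With the prefix as a covariate it was -0.48 (adjusted p = 0.376), and without female WT 4 and female KO 4 it was -0.25. *Ebf2* differed by -0.27 (SE 0.16, adjusted p = 0.316), and it passed when female KO 2, its highest library, was left out (-0.42, limma adjusted p = 0.0453). No other member passed without any 1 library.

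The KO effect was then compared between the sexes. None of the 10 members, and 0% of all genes, passed the adjusted threshold for this difference in limma, and at an unadjusted p under 0.05 there were 0 of 10 members against 14.2% of all genes. The values, male effect minus female effect, ranged from -1.02 for *Dio2* (SE 0.85) to 0.67 for *Ebf2* (SE 0.33, 95% interval -0.04 to 1.37, adjusted p = 0.381). The effect of *Ebf2* was 0.06 in males and -0.61 in females.

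WT males were also compared with WT females. Of 10 members 0 passed the adjusted threshold in limma against 0.0664% of 12042 genes, 0 passed an unadjusted p of 0.05 against 3.42%, and 0 had separate groups against 1.92%. *Ucp1* averaged 3674 ± 590.4 TPM in male WT and 2915 ± 332 TPM in female WT mice (SD, n = 4 each), a difference of 0.33 (log2, SE 0.16, 95% interval -0.04 to 0.69). The regulators *Ppargc1a* and *Ppargc1b* were at -0.36 (SE 0.34) and -0.39 (SE 0.31), male minus female, with 1 high female WT library of *Ppargc1a* and 2 of *Ppargc1b*.

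*Ppargc1a* gives rise to several transcripts, and 5 were in the table. Ppargc1a-203 is the full-length coding transcript with 797 codons. In Ppargc1a-201, annotated as a target of nonsense-mediated decay, exon 7 begins 31 bases earlier, and the reading frame reaches a stop codon within the first 13 of these bases, after 270 codons. A short protein of this kind, known as NT-PGC-1alpha, is made in brown fat. Ppargc1a-204 has the same longer exon 7. Ppargc1a-202 and Ppargc1a-204 start 1 and 21 bases from the RefSeq start whose promoter is shown above, 13803 bases upstream of the start of Ppargc1a-203, at an alternative promoter known to respond to beta-adrenergic signals. The junction of exons 6 and 7 is shown because it is what tells the main transcripts apart, with the longer exon in capitals from its first base to the stop codon (chr5:51490109-51490121, minus strand, GENCODE M21 on GRCm38).
Ppargc1a-203: cccagagtcaccaaatgaccccaagggttc
Ppargc1a-201: cccagagtcaccaaaTTTGTTTTTATAA

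Ppargc1a-203 made up 77.2% of the TPM of *Ppargc1a* on average and Ppargc1a-201 20.4%, and the other 3 transcripts were each above 0 in 4 of the 16 libraries. The share of Ppargc1a-203 was 87.9, 84.0, 80.5 and 58.5% in male WT and 92.9, 86.0, 88.1 and 86.6% in male KO mice. Male KO libraries were thus uniformly high, and WT 4 was the low one. The means were 77.7 ± 13.2% and 88.4 ± 3.11% (SD, n = 4 each; exact two-sided permutation test, p = 0.0857). Without WT 1 the difference grew from 10.7 to 14.05 percentage points, with an exact permutation p = 0.0286, and the groups no longer overlapped. Without WT 4 it was 4.26 percentage points (exact permutation p = 0.171), so its size rested on that library.

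In females the share of Ppargc1a-203 was 59.3, 80.6, 64.3 and 42.9% in WT and 86.7, 89.0, 91.6 and 56.0% in KO mice. Of the KO libraries 3 were above all WT libraries, and KO 4 was below 3 of the 4. The means were 61.8 ± 15.5% and 80.8 ± 16.7% (SD, n = 4 each; exact permutation p = 0.143). Male and female WT mice differed by 15.95 percentage points (exact permutation p = 0.229).

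By level, Ppargc1a-201 was highest in the libraries with the highest gene level, a sum that includes it. It had 7.35 TPM in female WT 1 and 11.5 TPM in female KO 4, against 0.270 to 3.003 TPM in the other 14 libraries. Its share of the gene was 40.7% and 33.4% there, and the range over all 16 libraries was 5.11 to 41.5%. The highest share was in male WT 4, where the gene was at 7.09 TPM. Ppargc1a-202, from the upstream start, was at 3.68 TPM in female KO 4, at 0.549 TPM in female WT 4, at 0.277 TPM in male WT 1 and at 0.0773 TPM in male KO 2, and it was listed at 0 in the other 12 libraries. Ppargc1a-205 was at 0.845 TPM in female WT 4 and under 0.01 TPM elsewhere. In limma over all transcripts, 0 of the 5 passed the adjusted threshold in males, where 1 reached the minimum TPM and 0.029% of 24129 transcripts passed, and 0 passed in females, where 2 reached it and 0.0124% of 24194 passed. At an unadjusted p under 0.05 none of these transcripts passed either, against 12.7% and 16.1% of all. Ppargc1a-203 differed by -0.12 (SE 0.14) in males and by 0.54 (SE 0.49) in females. Reads that fall in shared exons are divided among transcripts by kallisto's model, so these shares are estimates.

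Of the other members, *Ucp1*, *Cidea* and *Dio2* had 1 transcript each in the table. The main transcript made up 94.8% of *Kcnk3*, 96.3% of *Ppargc1b*, 88.6% of *Ebf2* and 80.9% of *Zfp516* on average. The lowest shares in a library were 92.2%, 70.7%, 74.1% and 39.7%, in the same order. For *Ppargc1b* the lowest was in female WT 4, its highest library. There the main transcript had 26.3 of 37.1 TPM, a processed transcript 6.78 TPM and another coding transcript 4.09 TPM. *Elovl3* was divided between a pair of coding transcripts at 62.5% and 37.5%. *Prdm16* was spread over 13 annotated transcripts, of which a coding one had the largest mean share, 35.3%, with a range of 11.3 to 54.5% over the libraries.

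Because the Cre transgene carries the *Ucp1* promoter, the genes next to *Ucp1* on chromosome 8 were read as well. *Elmod2*, an ELMO domain gene on the minus strand, ends 22280 bases downstream of the *Ucp1* start on GRCm38. It had 3.45, 4.15, 4.52 and 4.78 TPM in male WT and 7.93, 9.77, 8.87 and 7.99 TPM in male KO mice. In females it had 4.88, 5.23, 4.95 and 5.04 TPM against 7.44, 7.18, 7.39 and 13.7 TPM. All 8 KO libraries lay above all 8 WT libraries. Over both sexes the difference was 0.84 (log2, SE 0.12, limma adjusted p = 0.00632), and it passed in all 27 alternatives run, with adjusted p between 0.00117 and 0.0286. Within sexes it was 0.96 in males (adjusted p = 0.0921) and 0.72 in females (adjusted p = 0.231).

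*Tbc1d9*, a TBC domain gene which starts at -125000 bases relative to *Ucp1*, had 2.36, 2.15, 2.52 and 1.49 TPM in male WT and 3.49, 4.83, 3.90 and 3.95 TPM in male KO mice, without overlap. In females it had 2.58, 1.99, 1.86 and 3.13 TPM against 2.88, 2.93, 2.74 and 4.38 TPM, with overlap in WT 4. Over both sexes the difference was 0.58 (SE 0.13, limma adjusted p = 0.0313), which no longer passed in 15 of 26 alternatives, among them the prefix as a covariate (adjusted p = 0.173). *Mgat4d*, on the other side of *Elmod2*, was listed at 0 in 14 libraries and had at most 0.0357 TPM. *Ucp1* itself, between these genes, differed by 0.14 over both sexes (SE 0.12, adjusted p = 0.491).

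**Figure D3:**
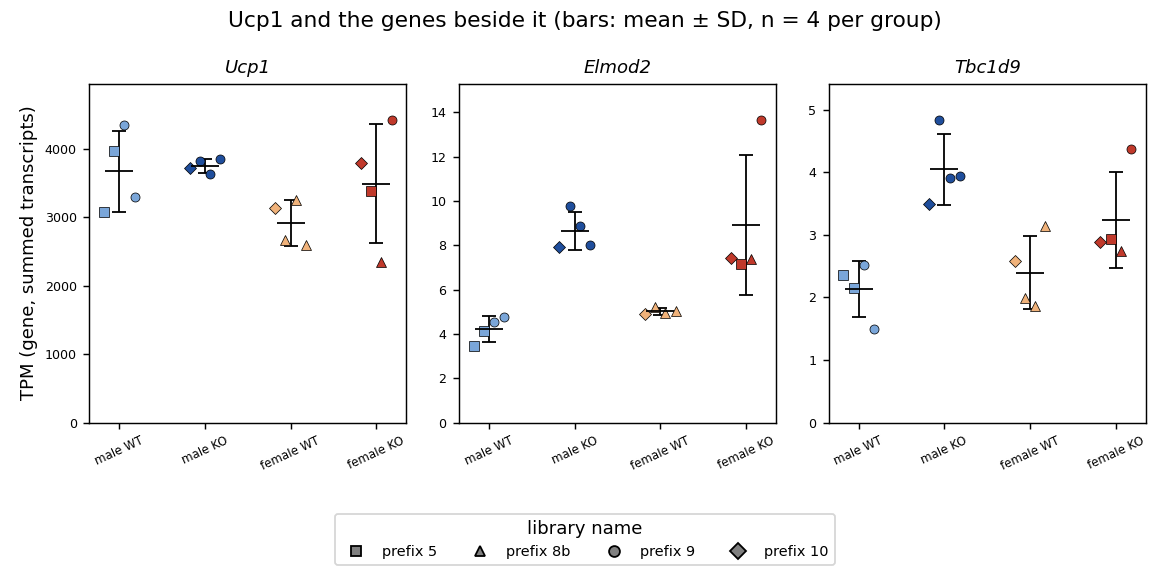
TPM of *Ucp1* and of its neighbours *Elmod2* and *Tbc1d9* in the 16 libraries, with the mean and SD of each group of 4 as bars and the name prefix as the shape of a point. *Elmod2* is at 7.18 TPM or more in all 8 KO libraries and at 5.23 TPM or less in all 8 WT libraries, while the WT and KO ranges of *Ucp1* overlap in both sexes.

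Other genes of the thermogenic programme were read from lists. Of 23 transcription factors and cofactors that act with the members, 21 were tested, and over both sexes 0 rose and 1 fell, with a list median of 0.05 beside 0.13 over all genes. The gene that fell was *Ppara*, a nuclear receptor for fatty acids that works with PGC-1alpha. It had 41.7, 38.8, 51.8 and 64.4 TPM in male WT and 29.3, 35.4, 38.2 and 46.3 TPM in male KO mice. In females it had 67.5, 37.4, 63.2 and 52.3 TPM against 23.8, 34.8, 24.9 and 28.4 TPM, and there the groups did not overlap. The difference over both sexes was -0.67 (SE 0.15, limma adjusted p = 0.0313), and it missed the threshold in 12 of 27 alternatives, with adjusted p up to 0.0882.

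None of the 21 tested of 23 further genes typical of brown adipocytes, none of the 7 tested of 9 repressors and neither of the 2 tested of 8 beige markers passed in any of the comparisons of KO with WT. Their medians over both sexes were 0.03, 0.14 and -0.05. The 8 adipocyte genes shared with white fat had a median of 0.09, with 0 past the threshold. Of the brown adipocyte genes, *Slc27a2*, a fatty acid transport protein, had the smallest p in males with -0.80 (limma adjusted p = 0.160), and *Acot11*, a cold-induced thioesterase, had the smallest in females with -1.37 (adjusted p = 0.231).

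Some markers of other cell types differed by genotype in the same libraries. Counts within each sex are given at an unadjusted p under 0.05 in limma. In males 10 of 13 macrophage, 8 of 12 fibroblast and 4 of 12 endothelial markers passed, against 18.7% of all genes. In females 1 of 12, 2 of 12 and 11 of 12 passed, in the same order, against 17.1% of all genes. The counts over both sexes that follow use the adjusted threshold, which 2.93% of all genes passed. Over both sexes 3 of 12 tested macrophage markers (*Cd68*, *C1qa* and *C1qb*), 5 of 12 fibroblast markers (*Cd34*, *Mfap5*, *Fn1*, *Pi16* and *Col1a2*) and 2 of 12 endothelial markers (*Cdh5* and *Tie1*) rose in KO, with list medians of 0.53, 0.62 and 0.53. The macrophage sum was 53.0 to 102 TPM in male WT and 133 to 198 TPM in male KO mice, and 62.7 to 137 TPM against 87.0 to 125 TPM in females. The fibroblast sum was 197 to 319.6 TPM against 357 to 389.7 TPM in males and 236 to 319.5 TPM against 269 to 472 TPM in females. The endothelial sum was 287 to 564 TPM against 453 to 530.4 TPM in males and 263 to 406 TPM against 439 to 878 TPM in females. None of the 14 tested skeletal muscle markers, the 7 tested white adipocyte markers, the 2 tested lymphocyte markers or the 4 tested Schwann cell and neuron markers passed, and no epithelial marker reached the minimum TPM over both sexes. In bulk tissue fewer brown adipocytes and less RNA per adipocyte cannot be told apart, and the part of these cells in the members' values was not tested.

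Among mice of the same group, the members differed in how much they varied. On the log2 scale the within-group SD, pooled over the 4 groups, was 0.94 for *Dio2*, 0.83 for *Elovl3* and 0.74 for *Ppargc1a*. This put them above 95.01%, 94.5% and 94.0% of all genes tested. The SD was 0.24 for *Ucp1*, 0.24 for *Cidea* and 0.21 for *Zfp516*, above 49.8%, 48.1% and 36.2% of all genes. The regulators and effectors thus each held both steady and variable genes. *Ppargc1a* varied in females, with an SD of 5.99 TPM in WT and 14.3 TPM in KO, against 0.772 and 0.735 TPM in males.

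Deviations from the group means were compared over the 16 libraries, as a description, since the points share libraries and the fixed sum of TPM. *Dio2* and *Ebf2* went in opposite directions (Pearson r = -0.73, Spearman rho = -0.74), also without female KO 4 (r = -0.72). *Ppargc1a* went with *Kcnk3* (r = 0.76, rho = 0.46) and *Ucp1* with *Elovl3* (r = 0.75, rho = 0.74). *Dio2* and *Ppargc1a* had r = 0.62, and 0.36 without female KO 4. Of 7594 genes with a mean of at least 5 TPM, those most like *Ucp1* were *Wdr73* (r = 0.93), *Ddx17* (0.91), *Apmap* (0.90), *Agpat5* (0.89) and *Mrps2* (0.88). Those most like *Ppargc1a* were *Pdp2* (0.87), *Sgpl1* (0.87), *Nop14* (0.86), *Adgra3* (0.86) and *Mapkapk2* (0.86). Without female KO 4 all of these values were lower, at 0.76, 0.77, 0.76, 0.54 and 0.78 in the same order.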

How the data were processed

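RNA from BAT of 16 mice was made into stranded mRNA libraries, and the authors quantified single-end reads per transcript with kallisto 0.46.2 (build GRCm39, per the submitters' processing notes). The deposited values are TPM, divided by transcript length and scaled to a fixed sum, so the number of reads is unknown and no counting interval is given. The authors' count test was not run because the values are not counts. Samples were grouped by the sex, genotype and replicate in their labels. The paper calls the WT mice littermate controls, but the labels do not say which mice shared a litter or cage. Of 137438 transcript identifiers, 135051 matched GENCODE M21 without version number and 2387 did not. Coordinates and sequences come from M21 or RefSeq on GRCm38 and were not mixed with the authors' build.

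Genes with a mean of at least 1 TPM were tested on log2(TPM + 0.5), a scale that understates changes of low genes, with limma 3.58.1 in R 4.3.3 (eBayes with trend) and Benjamini-Hochberg adjustment at 0.05, over 8 libraries within a sex and over 16 otherwise. The scripts were tested on simulated data. Single values were compared by exact two-sided permutation tests. The members, lists and tests were chosen with earlier results of these data known. Genes named are the members, *Gdf15*, the nearest protein-coding genes of *Ucp1* (*Gm10645* had no value here), list genes past the threshold or else those with the smallest p, and the 5 genes most correlated with *Ucp1* and with *Ppargc1a*. Same-numbered WT and KO replicates did not deviate together (correlations -0.12 to 0.35), so no pairing by number was assumed. The numbers are not said to mark litters, and pairing by litter was not tested. Alternatives covered the pseudocount, the minimum, 3 rescalings, the eBayes trend, a replicate block, the name prefix, the libraries pooled and each library left out. Leaving out female WT 4 and female KO 4 together was chosen after seeing the data.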

Additional observations from a re-analysis of the deposited data

Results flagged for a closer look

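Within groups of 4, a library was marked when its distance from the nearest other library was an unusually large part of the group's range, which chance alone gives in about 1 of 20 groups, and 52 groups of a gene were examined. *Ppargc1a* was at 34.6 TPM in female KO 4, against 5.32 to 7.19 TPM in the other 3 female KO libraries. The genes beside *Ucp1* were marked in the same library, with *Elmod2* at 13.7 TPM and *Tbc1d9* at 4.38 TPM. *Gdf15* was marked in female KO 3, at 0.0794 TPM, because the other 3 libraries of the group were listed at 0.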

How the results depend on the processing

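Of 1105 member values recomputed under the alternatives, 1044 kept their direction and their side of the threshold, 60 changed sign without passing it and 1 passed it. The count of members past the threshold was 0 in every comparison and alternative, except over both sexes without female KO 2, where *Ebf2* passed, so that leaving out 1 library gave 0 to 1. The replicate block changed no member's call, and with it *Tbc1d9* (adjusted p = 0.0698) and *Ppara* (0.0622) no longer passed over both sexes. In these paired fits 60 genes passed in place of 358. Over both sexes 12 genes passed with the prefix as a covariate, 30 without female WT 4 and female KO 4, 54 without a TPM minimum, 177 at a mean of at least 5 TPM, and 31 to 1055 without 1 library. Counts over all genes went from 1 to between 0 and 38 in males, from 0 to at most 9 in females and 3 for the difference between sexes, and from 8 to between 3 and 11 for sex in WT. The prefix could not be fitted for male against female WT.

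The sign changes follow, as log2 differences, and their cause was not tested. In males the median of ratios, leaving out mitochondrial transcripts and the adipocyte scaling gave *Ucp1* -0.12, -0.061 and -0.037 and *Ebf2* -0.10, -0.043 and -0.020, and the prefix gave *Ucp1* -0.011 and *Elovl3* 0.30. In females the prefix gave *Ucp1* -0.049, *Cidea* -0.075 and *Ppargc1a* -0.76, leaving out both replicates 4 gave *Ppargc1a* -0.45 and *Prdm16* 0.071, and a pseudocount of 0.1 gave *Zfp516* 0.00096. Over both sexes the median of ratios gave *Prdm16* -0.021 and *Zfp516* -0.0062, and the prefix *Ucp1* -0.0058 and *Kcnk3* -0.031. For the difference between sexes the prefix gave *Ucp1* 0.0036 and *Ppargc1a* 0.050, and leaving out both replicates 4 gave *Ppargc1a* 0.14. For sex in WT, leaving out mitochondrial transcripts gave *Ebf2* 0.035 and the adipocyte scaling *Dio2* -0.12.

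Leaving out 1 library in turn gave, in males, *Ucp1* -0.036 to 0.13, *Dio2* -0.51 to 0.042, *Elovl3* -0.25 to 0.34 and *Kcnk3* -0.098 to 0.015. In females it gave *Zfp516* -0.12 to 0.11, *Ppargc1a* -0.42 to 0.55 and *Prdm16* -0.11 to 0.13. Over both sexes it gave *Cidea* -0.066 to 0.052 and *Ppargc1a* -0.37 to 0.12, and for the difference between sexes *Ppargc1a* -0.86 to 0.11. For sex in WT it gave *Dio2* -0.28 to 0.39, *Ebf2* -0.16 to 0.018, *Elovl3* -0.034 to 0.44, *Ppargc1a* -0.63 to 0.0083 and *Prdm16* -0.15 to 0.076. The share of Ppargc1a-203 in males differed by 4.26 to 14.05 percentage points and passed without male WT 1. *Gdf15* differed by -1.71 to -0.94 in males, where it missed the threshold without any 1 KO library (exact permutation p = 0.0571), and by -0.54 to -0.36 in females, where it passed without female WT 1 (exact permutation p = 0.0286). The unknown read depth limits what low genes such as *Gdf15* and *Zfp516* can show.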
